A study of Mus musculus with 18 samples.

Results

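The oxidative phosphorylation set comprised every probe set of a mouse brain expression array whose only annotated symbol was a nuclear gene of the respiratory chain or the ATP synthase. Symbols starting with Nduf, Uqcr or Atp5, Sdha to Sdhd, Cox4 to Cox8, Cycs and Cyc1 were taken. The rule found 101 of the 12488 probe sets, which named 73 of the 8252 genes that a probe set names alone. Of these, 80 probe sets of 67 genes passed the filter on low signal that left 8382 probe sets for testing. The tested members held 30 probe sets of complex I, 4 of complex II, 9 of complex III, 1 of cytochrome c, 14 of complex IV and 19 of the ATP synthase. A further 2 probe sets named the complex I assembly factors Ndufaf1 and Ndufaf4, and 1 named the supercomplex factor Cox7a2l, which meet the rule by name without being subunits.

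RNA came from hippocampus, cerebellum and cortex of 3 Aldh5a1-/- mice and 3 wild-type mice, with 1 array per animal and region, 18 arrays in all. The deleted gene, Aldh5a1, codes for succinate semialdehyde dehydrogenase, which completes GABA breakdown inside mitochondria. Strain, age, sex and any treatment of the mice are not given in the sources used here, and Aldh5a1 had no probe set, so genotype rests on the labels alone. The source label named hippocampus for every sample, so the region was taken from title and description, and each of the 18 arrays was nearest to arrays of the region it names. The Aldh5a1-/- animals are numbered 3363, 3389 and 3403, and the wild-type animals 3405, 3406 and 3396. Values are listed in that order.

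Oxidative phosphorylation runs on the inner mitochondrial membrane. Complexes I and II pass electrons from NADH and succinate to ubiquinone, complex III passes them on to cytochrome c, and complex IV passes them to oxygen. Complexes I, III and IV pump protons as they do so, and the ATP synthase uses the returning protons to make ATP. Succinate, the substrate of complex II, is also the product of the Aldh5a1 reaction. Some core subunits of complexes I, III and IV and of the ATP synthase are encoded in mitochondrial DNA, and of 13 listed 0 had a probe set, so only the nuclear-encoded partners were measured.

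Signal is the deposited array intensity on a linear scale. Every column had a 2% trimmed mean of 150.07 to 150.08, and replicate arrays of a group correlated with r between 0.955 and 0.976. The mean signal of the tested members ran from 30.4 to 3305, with a median of 774, against an array median of 53.5 to 64.8. Differences are given on the log2 scale after values under 9.46 were raised to 9.46, with the standard error (SE) of the limma fit and a p adjusted by Benjamini-Hochberg over all 8382 probe sets. An adjusted p under 0.05 counted as passing. Because each probe set binds with its own strength, signals were compared between arrays for 1 probe set, not between genes.

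The clearest pattern among the members was regional. In wild-type mice many subunits of complexes I and III and of the ATP synthase had a higher signal in cerebellum than in the forebrain regions, while complex IV held both directions, and the higher members included Uqcrb, Atp5o, Atp5e, Ndufa13 and Ndufb8. Against cortex, 27 of 80 member probe sets were higher in cerebellum and 10 lower by limma, where 19.1% of all tested probe sets were higher and 24.1% lower. Against hippocampus, 31 members were higher and 3 lower, with 14.7% higher and 16.4% lower among all. Here and below, the members counted as higher in cerebellum include a Cox6b2 probe set that met the filter through its cerebellum arrays alone. Those lower than in cortex in wild-type mice include a further Cox6b2 probe set that met it mainly through cortex. The median log2 difference of the members was 0.14 against cortex and 0.19 against hippocampus, and the medians over all probe sets were -0.07 and -0.05. In bulk tissue, fewer cells of a type and less RNA per cell cannot be told apart.

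Hippocampus and cortex differed in few members. None was higher in hippocampus, where 7.46% of all probe sets were. Of the members, 4 were lower, with 6.86% of all: Uqcrb, Cox7a2, Cox7b and a dim probe set of Cox6b2. The Cox6b2 probe set met the filter mainly through its cortex arrays, which favoured its call. At an unadjusted p under 0.05, 22 members differed in either direction (29.0% of all), and the median difference was -0.04 (all probe sets, -0.02). Over the 3 regions together, the limma F test passed for 41 of 80 members in wild-type mice, against 46.5% of all probe sets. In wild-type mice the share of members that varied by region (51.2%) was thus near the background, and the direction leaned to the cerebellum.

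The limma F test passed for 50 of 80 members (62.5%) in the Aldh5a1-/- mice, above the 48.6% of all probe sets. These mice, a separate set of animals, leaned in the same direction. Their cerebellum was above cortex in 34 members and below it in 7, where 18.8% of all probe sets were higher and 20.2% lower. It was above hippocampus in 46 and below it in 6, with 18.7% and 21.3% among all. Their hippocampus was above cortex in 1 member, Ndufb7, and below it in 7 (6.90% and 7.53% of all). Of the wild-type calls against cortex, 29 of 37 passed in the same direction in the Aldh5a1-/- mice (78.4%), which is 70.7% of the calls made there. Against hippocampus, 33 of 34 did (97.1%), or 63.5% of the Aldh5a1-/- calls. Between hippocampus and cortex 2 members passed in both genotypes, with 7.48% of all. None passed in opposite directions. Over all tested probe sets, 2345 of 3620 wild-type calls against cortex passed in the same direction in the Aldh5a1-/- mice, as did 2036 of 2608 against hippocampus. These are 28.0% and 24.3% of all tested probe sets, a different base from the shares of calls. Cerebellum was above both other regions in 24 members and below both in 3 in wild-type mice (10.9% and 12.2% of all), and in 33 and 5 in Aldh5a1-/- mice (12.1% and 13.7%). In both genotypes, 22 member probe sets of 20 genes were higher in cerebellum than in both other regions (8.04% of all) and 3, of Cox6a2, Cox8c and Ndufa10, were lower (8.69%).

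**Figure D1:**
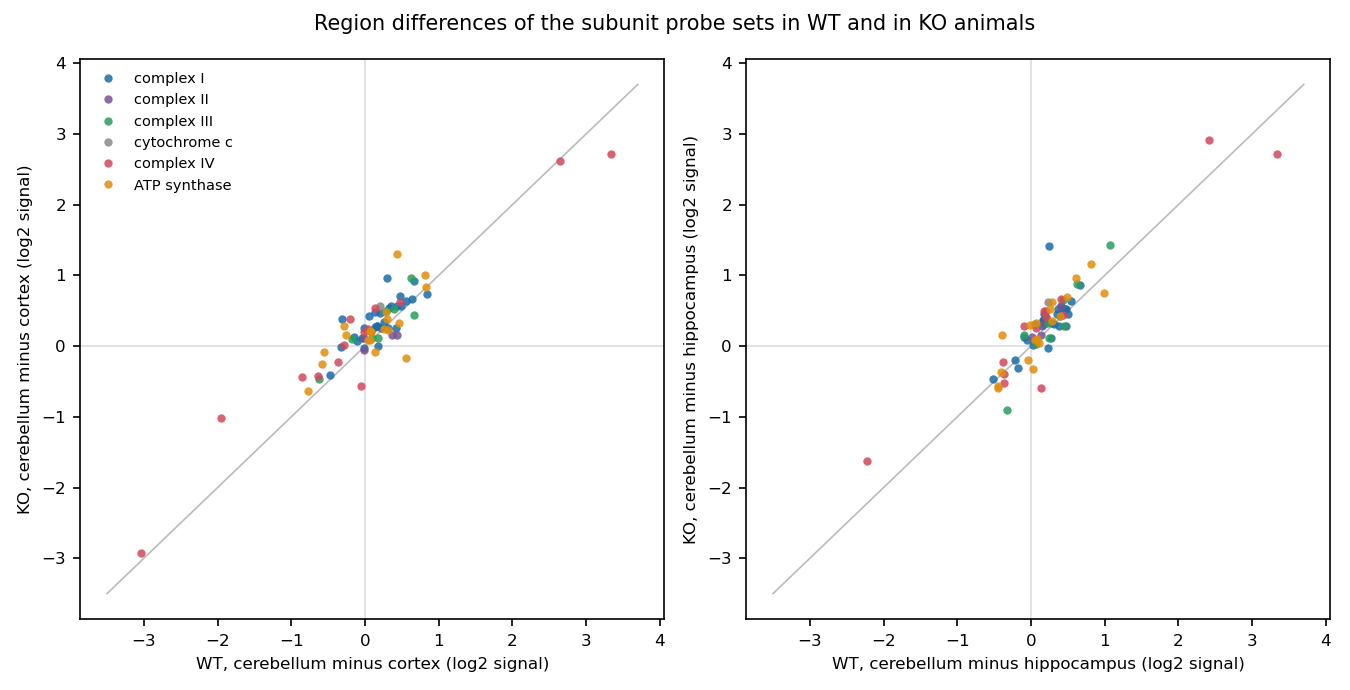
Each point is 1 subunit probe set, with the log2 difference of cerebellum minus cortex or cerebellum minus hippocampus in wild-type mice (WT) on the x axis and in Aldh5a1-/- mice (KO) on the y axis, coloured by complex. More points lie above 0 than below it (medians 0.14 and 0.19 over the 80 members in wild-type mice), and the probe sets farthest from 0 are those of Cox6b2 and Cox6a2.

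For cerebellum against cortex, scaling moved the split of calls over all probe sets, and the members' median stayed above 0. With arrays scaled to a common median, the median cerebellum minus cortex difference over all probe sets went from -0.07 to 0.10 and the calls from 1602 higher and 2018 lower to 2329 and 1302. The members' median was then 0.31. With quantile normalization the calls were 1678 and 1650, and the members' median was 0.16. The direction differed with signal, with no test of that difference: of the members with the higher mean signal 17 were higher and 2 lower in cerebellum than in cortex, and of those with the lower mean signal 10 and 8. Leaving out wild-type animal 3405 brought the members lower in cerebellum than in cortex from 10 to 5, and leaving out 3396 brought those higher than in hippocampus from 31 to 19. Taking the brightest probe set of each gene, 14 of the 31 genes called between cerebellum and cortex lost the call when some 1 animal was left out, as did 16 of 30 between cerebellum and hippocampus and 3 of 3 between hippocampus and cortex. None of them turned its sign.

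Cell type markers and RNA integrity differed between the same arrays. Of 9 tested neuron markers, 7 were lower in wild-type cerebellum than in cortex (median log2 difference -0.83), and their summed signal was 10896 to 12787 in cerebellum, 15242 to 16640 in cortex and 14261 to 15499 in hippocampus, with no marker under the floor throughout a group. Of 7 astrocyte markers, 3 were higher and 2 lower, and the summed signal was 8250 to 8582 in cerebellum and 5648 to 5658 in cortex. Of 7 microglia markers, 6 were lower (median -0.89), with a summed signal of 744 to 992 in cerebellum, where Aif1 was under the floor, and 1473 to 1574 in cortex. Of 7 myelin and oligodendrocyte markers, 4 were higher (median 0.51), with 8531 to 9746 and 6705 to 8641, and of 7 endothelium markers 3 were higher (median 0.27), with 778 to 849 and 511 to 696. Of 3 choroid plexus markers 0 passed against cortex, but all 3 were lower in cerebellum than in hippocampus (median -2.89). Their summed signal was 51.3 to 1275 in cerebellum and 1384 to 2204 in hippocampus. The signal ratio of 3′ to 5′ probe sets, a sign of RNA integrity, was 1.28 ± 0.0951 (SD, n = 3) for actin in wild-type cerebellum, 1.30 ± 0.190 in hippocampus and 1.77 ± 0.140 in cortex, and for Gapdh 0.796 ± 0.00677, 0.841 ± 0.0429 and 0.903 ± 0.0202. The part of cell composition and RNA integrity in the members' regional differences was not tested.

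Nuclear genes of this set are textbook targets of the transcription factors NRF1, GABP (also called NRF2) and YY1, so the promoters of the members were searched for their motifs. RefSeq windows of the build GRCm38.p6, from 250 bases before to 50 after a gene's start, were at hand for 59 of the 73 member genes. Some genes have more than 1 start, and a match in any window of a gene was counted. The NRF1 motif was GCGCA, any 1 base, then GCGC. The GABP motif was CCGGAAG, and the YY1 motif was AAGATGG directly followed by CGGC. Each was read on both strands, and none of them contains another. The NRF1 letters were in 12 of 59 member promoters (20.3%), against 5.19% of 27025 genes and 9.97% of the 6573 genes that the array names. The GABP letters were in 16 (27.1%), against 9.93% and 17.1%, and the YY1 letters in 2 (3.39%), against 0.755% and 1.43%. Among the 18 members with a window that were higher in cerebellum in both genotypes, 50% held at least 1 of the motifs, against 45.8% of all member promoters and 25.7% of the genes on the array. A match is a run of letters and was not tested as a binding site.

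The 120 bases before a start of 5 genes that were higher in cerebellum in both genotypes are printed here to show how a motif sits there. All 5 hold a motif, while 9 of the 18 such genes with a window do. Atp5j and Atp5c1 each have a further start, not printed, whose 120 bases hold none. They are lower case with the motif in capitals, 5′ to 3′ along the gene. All lie on the minus strand of GRCm38.p6. Atp5e (chr2:174464102-174464221), Uqcrh (chr4:116075071-116075190), Ndufs3 (chr2:90904722-90904841) and Atp5j (chr16:84834977-84835096) hold the GABP letters, in the first pair as the reverse complement, and Atp5c1 (chr2:10080433-10080552) holds the NRF1 letters.
Atp5e: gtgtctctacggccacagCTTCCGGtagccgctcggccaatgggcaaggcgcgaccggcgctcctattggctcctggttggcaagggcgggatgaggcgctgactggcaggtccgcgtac
Uqcrh: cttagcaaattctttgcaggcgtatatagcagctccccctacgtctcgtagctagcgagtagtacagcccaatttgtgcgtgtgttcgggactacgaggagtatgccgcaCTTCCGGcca
Ndufs3: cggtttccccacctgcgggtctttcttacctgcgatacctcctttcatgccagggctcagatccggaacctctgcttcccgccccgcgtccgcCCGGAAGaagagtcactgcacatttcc
Atp5j: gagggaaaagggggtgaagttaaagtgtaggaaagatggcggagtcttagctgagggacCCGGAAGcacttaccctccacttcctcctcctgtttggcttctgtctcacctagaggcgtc
Atp5c1: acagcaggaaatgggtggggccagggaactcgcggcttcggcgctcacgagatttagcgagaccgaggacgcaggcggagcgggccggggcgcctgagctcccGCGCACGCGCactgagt

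In complex I, the NADH dehydrogenase, 12 of 30 probe sets were higher in wild-type cerebellum than in cortex and 1 was lower (19.1% and 24.1% of all). Against hippocampus 14 were higher and 1 lower (14.7% and 16.4% of all). Ndufb8, an accessory subunit of the membrane arm, had signals of 1512, 1602 and 1603 in wild-type cerebellum, 1083, 1037 and 1119 in hippocampus and 986, 1159 and 863 in cortex. All cerebellum arrays lay above all arrays of both other regions. The log2 difference from cortex was 0.66 ± 0.10 (SE), 1.58-fold, with a limma adjusted p of 0.000161. In the Aldh5a1-/- mice the signals were 1609, 1516 and 1612 in cerebellum and 783, 794 and 936 in cortex, again apart, with a difference of 0.92 ± 0.10.

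Ndufa13, an accessory subunit also known as GRIM-19, was at 830, 859 and 652 in wild-type cerebellum and 391, 482 and 432 in cortex. Cerebellum and cortex did not overlap, while the hippocampus arrays at 729, 475 and 538 reached into the cerebellar range. The difference from cortex was 0.84 ± 0.16 on the log2 scale, 1.79-fold (limma adjusted p 0.000779). The Ndufa13 difference from hippocampus was 0.44 and passed, but not without animal 3363, 3396, 3403 or 3406 (0.23, 0.388 without 3406). With quantile normalization (0.40, 0.0705), no filter (0.128) or no intensity trend (0.0883) it did not pass either. Ndufb10 and Ndufb11, both of the membrane arm, were higher in cerebellum than in cortex by 0.64 ± 0.11 and 0.55 ± 0.09. Ndufb7 was higher by 0.44 ± 0.09, and each of these 3 passed against hippocampus as well.

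Subunits of the peripheral arm, where NADH is oxidised and iron-sulfur clusters carry the electrons, were mixed. Ndufs3, a core subunit, was higher in cerebellum than in cortex by 0.42 ± 0.09 and Ndufv2, a further core subunit, by 0.35 ± 0.09. Ndufv1, which binds NADH, differed by 0.18 ± 0.08 (limma adjusted p 0.0878) and did not pass against cortex. Without animal 3406 Ndufv2 was at 0.30 (adjusted p 0.0582). Ndufs1, the largest subunit of the complex, differed by -0.01 ± 0.09 from cortex and did not pass against either region.

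Ndufs4, an accessory subunit whose loss causes Leigh syndrome, was dim, with 98.2, 72.7 and 85.9 in wild-type cerebellum, 55.0, 53.6 and 52.6 in hippocampus and 63.0, 55.8 and 64.3 in cortex. The cerebellum arrays lay above all others. The difference from hippocampus was 0.66 ± 0.17, 1.58-fold, with a limma adjusted p of 0.00842, and without animal 3405 it was 0.57 with an adjusted p of 0.0750. In Aldh5a1-/- mice it was 0.86 ± 0.17.

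Ndufa10 was the exception in complex I. Its signal was 114, 137 and 138 in wild-type cerebellum, 199, 185 and 175 in hippocampus and 198, 171 and 175 in cortex. The cerebellum arrays lay below all others, by -0.48 ± 0.13 against cortex and -0.52 ± 0.13 against hippocampus (limma adjusted p 0.00858 and 0.00702). Without animal 3405 they were -0.33 and -0.39 and did not pass (0.101 and 0.0754). The Aldh5a1-/- mice gave -0.41 ± 0.13 and -0.47 ± 0.13.

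Complex II, succinate dehydrogenase, has 4 subunits, all nuclear, and each had 1 tested probe set. The membrane anchors Sdhc and Sdhd were higher in wild-type cerebellum than in cortex, by 0.44 ± 0.11 and 0.37 ± 0.12 on the log2 scale (limma adjusted p 0.00456 and 0.0230). Without animal 3396 they were 0.32 and 0.24 and did not pass (0.0626 and 0.202). Sdha, the flavoprotein that oxidises succinate, and Sdhb, the iron-sulfur subunit, each differed by -0.02 between these regions and did not pass. Sdhd was at 705, 652 and 796 in wild-type cerebellum and at 609, 541 and 520 in cortex, with no overlap. Neither anchor passed against cortex in Aldh5a1-/- mice, where the differences were 0.16 ± 0.11 and 0.15 ± 0.12, while both passed against hippocampus there (0.31 ± 0.11 and 0.57 ± 0.12). In wild-type mice only Sdhd passed against hippocampus, at 0.41. Without animal 3396 or 3405 it was 0.36 or 0.32 and did not pass (limma adjusted p 0.0824 and 0.0977). In the test of whether regional differences depend on genotype, no member passed.

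In complex III, the cytochrome bc1 complex, 4 of 9 probe sets were higher in wild-type cerebellum than in cortex and 1 was lower (19.1% and 24.1% of all). Uqcrb, the subunit next to the ubiquinone site, separated all 3 regions. Its signal was 836, 793 and 782 in wild-type cerebellum, 491, 609 and 471 in cortex and 356, 394 and 399 in hippocampus. No array of a region overlapped with another region. Cerebellum was above hippocampus by 1.07 ± 0.10, 2.10-fold (limma adjusted p 1.09e-06), and above cortex by 0.63 ± 0.10. Hippocampus was below cortex by -0.44 ± 0.10 (adjusted p 0.00904), which was -0.35 without animal 3406 and did not pass (0.0936). In Aldh5a1-/- mice the signals were 997, 984 and 940 in cerebellum, 471, 539 and 491 in cortex and 370, 357 and 358 in hippocampus, in the same order.

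Uqcrh, the hinge protein that docks cytochrome c, was at 1633, 1483 and 1786 in wild-type cerebellum, 1063, 896 and 1259 in hippocampus and 1201, 1213 and 1310 in cortex. The cerebellum arrays were the highest, and the forebrain regions overlapped. The difference from hippocampus was 0.62 ± 0.10 and from cortex 0.39 ± 0.10. Uqcrc1, a core protein, was at 1452, 1455 and 1603 in cerebellum and at 1168, 888 and 824 in cortex, 0.66 ± 0.10 apart (limma adjusted p 0.000162). Its partner Uqcrc2 differed by -0.18 ± 0.14 and did not pass.

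Cyc1, the cytochrome of complex III, gave different answers from its 2 tested probe sets. The brighter was higher in wild-type cerebellum than in cortex by 0.29 ± 0.09, and the other was lower by -0.62 ± 0.17, each past the threshold (limma adjusted p 0.0223 and 0.00987). The brighter was at 0.20 without animal 3396 and 0.24 without 3405 and did not pass (0.169 and 0.132). Cycs, the mobile cytochrome c, was at 384, 284 and 302 in cerebellum, 290, 247 and 284 in hippocampus and 226, 305 and 307 in cortex. These ranges overlapped, and the difference from cortex was 0.21 ± 0.20 (limma adjusted p 0.40). In Aldh5a1-/- mice it was 0.56 ± 0.20, which passed (0.0357).

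**Figure D2:**
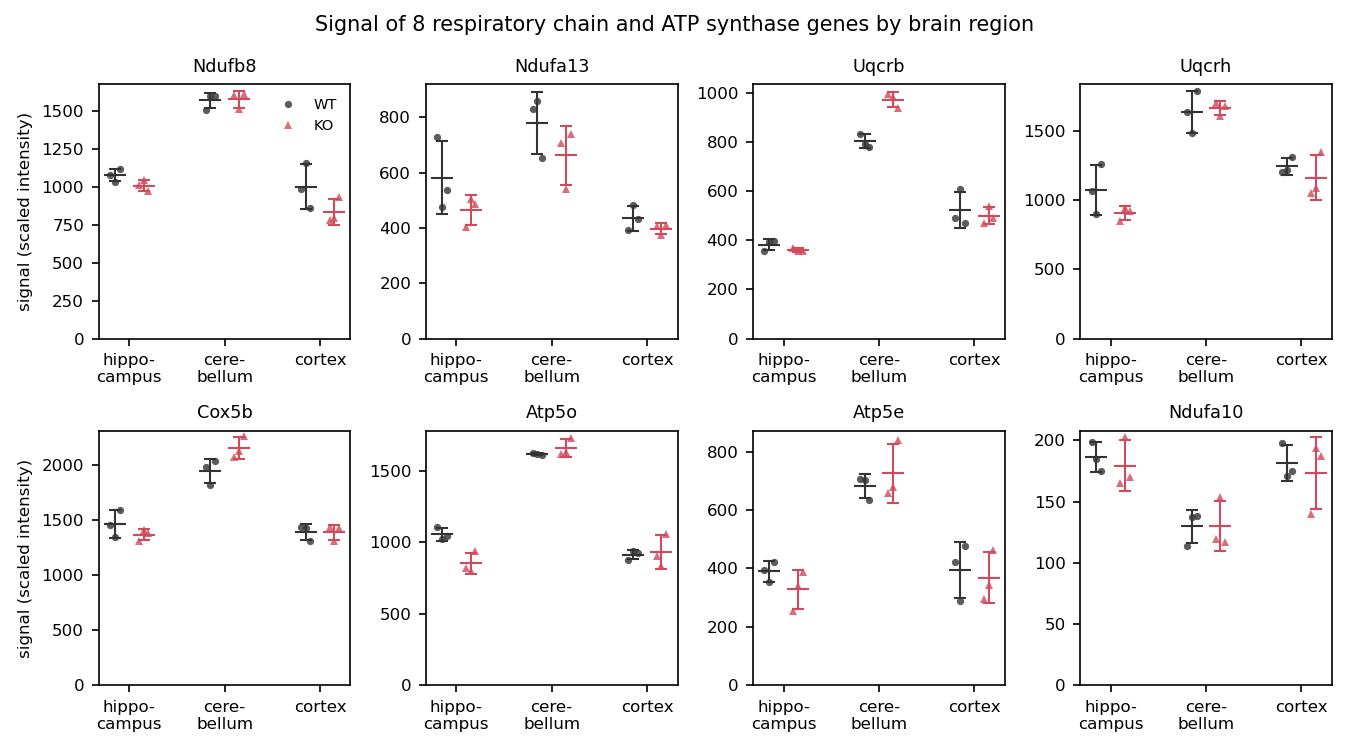
Signal of each array (y axis, linear intensity) for 8 members by region (x axis), wild-type as black circles and Aldh5a1-/- as red triangles, with bars at the mean ± SD of 3 arrays. Ndufb8, Uqcrb, Uqcrh, Cox5b, Atp5o and Atp5e stand highest in cerebellum in both genotypes, and Ndufa10 stands lowest there.

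Complex IV, cytochrome c oxidase, held both directions. Of its 14 probe sets, 3 were higher (21.4%) and 5 lower (35.7%) in wild-type cerebellum than in cortex, with 19.1% and 24.1% among all. Against hippocampus 4 were higher (28.6%) and 2 lower (14.3%), with 14.7% and 16.4% among all. Cox6b2 alone gave 3 of the 14. The filter itself favoured a call of higher for a Cox6b2 probe set and of lower than in cortex for another, as given below. Cox5b, a subunit facing the matrix, was at 1978, 1820 and 2030 in cerebellum, 1455, 1340 and 1591 in hippocampus and 1436, 1427 and 1310 in cortex. The cerebellum arrays lay above the rest, by 0.48 ± 0.08 against cortex (limma adjusted p 0.000437). The largest differences of all members lay in subunits of complex IV that exist as tissue isoforms.

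Cox6a has a ubiquitous form, Cox6a1, and a heart and muscle form, Cox6a2. The Cox6a1 probe set was at 3776, 3446 and 3472 in wild-type cerebellum and 3838, 3905 and 3111 in cortex, which overlapped, and differed by -0.02 ± 0.09. Cox6a2 was at 33.8, 16.3 and 12.2 in wild-type cerebellum, 130, 72.1 and 75 in hippocampus and 162, 143 and 162 in cortex. Cerebellum was apart from both regions, 8.24-fold below cortex (log2 difference -3.04 ± 0.37, limma adjusted p 1.52e-05) and 4.71-fold below hippocampus (-2.23 ± 0.37). In Aldh5a1-/- mice the signals were 13.2, 16.2 and 28.0 in cerebellum, 89.2, 27.6 and 71.2 in hippocampus and 113, 170 and 136 in cortex. Cerebellum was again below every cortex array, by -2.92 ± 0.37, but 1 hippocampus array, of animal 3389, lay within the cerebellar range.

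Markers of striated muscle were looked at beside Cox6a2. Of 5 on the array 2 were tested, and Myl2 lay under the floor on all 18 arrays, as did Myh6 in hippocampus and cerebellum. The summed signal of the 5 was 93.5 to 108 in wild-type cerebellum, 162 to 343 in hippocampus and 183 to 197 in cortex. Its part in the Cox6a2 difference was not tested.

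Cox6b has the ubiquitous form Cox6b1 and the testis form Cox6b2. Cox6b1 was at 54.8, 65.2 and 54.6 in wild-type cerebellum and 104, 49.1 and 83.0 in cortex, which overlapped, and did not pass (-0.37 ± 0.24). The brightest Cox6b2 probe set was at 238, 229 and 292 in wild-type cerebellum, 49.0, 61.5 and 35.3 in hippocampus and 31.6, 46.5 and 44.1 in cortex. All cerebellum arrays were far above the rest, 6.26-fold above cortex (2.65 ± 0.22, limma adjusted p 3.04e-07), and 2.62 ± 0.22 above it in Aldh5a1-/- mice.

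The other Cox6b2 probe sets disagreed. One was at 75.9, 130 and 89.8 in wild-type cerebellum and under 9 on every wild-type hippocampus and cortex array, below the floor of 9.46. It was under the floor on every Aldh5a1-/- array of these 2 regions too. It met the filter through its cerebellum arrays alone, so its higher signal there was fixed by the filter. It is still among the members counted as higher in cerebellum. The remaining Cox6b2 probe set was at 127, 41.4 and 64.9 in cortex, 26.3, 7.12 and 20.1 in hippocampus and 18.1, 3.71 and 34.0 in cerebellum. It was lower in cerebellum than in cortex by -1.96 ± 0.36 (limma adjusted p 0.000577). Outside cortex its signal was 3.71 to 36.7 over both genotypes. It thus met the filter mainly through its cortex arrays, which favoured calls of a higher signal there. It is still among the members counted as lower in wild-type cerebellum than in cortex. The identifiers of all 3 Cox6b2 probe sets carry a suffix that marks probes shared with other transcripts or chosen under relaxed rules, so the gene behind each signal was not settled here. The same holds for the probe sets of Uqcrb, Uqcrc2, Sdhb, Cox6a1, Cox6b1, Cox6c, Cox8b, Atp5e, Atp5md and Ndufa5 described here. It holds for the brighter probe set of Cox4i1 and of Atp5c1, and for the dimmer one of Cyc1 and of Atp5g1. Of the Atp5d probe sets described here, only the one lower in cerebellum than in cortex has no suffix. In all, 28 of the 80 tested members carry one.

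**Figure D3:**
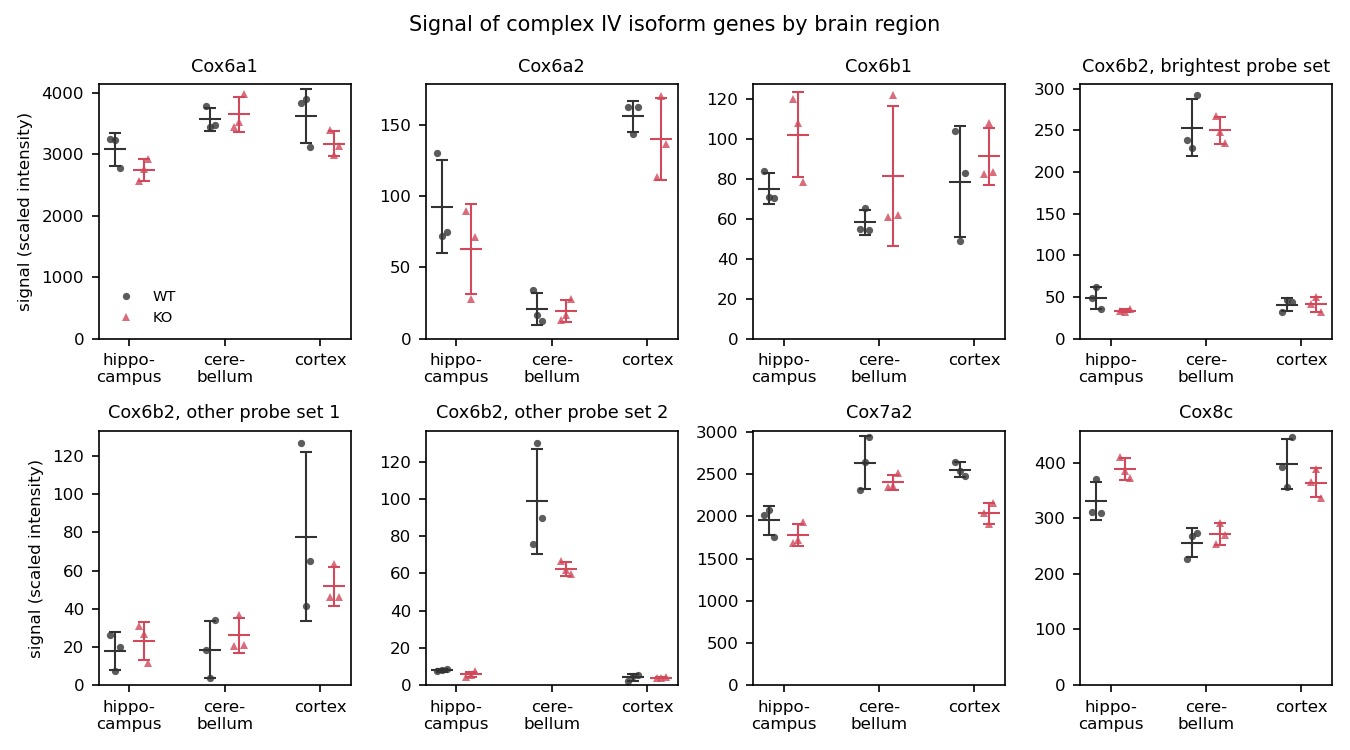
Signal of each array (y axis, linear intensity) by region (x axis) for isoform genes of complex IV, wild-type as black circles and Aldh5a1-/- as red triangles, with bars at the mean ± SD of 3 arrays. Cox6a2 is lowest in cerebellum (12.2 to 33.8 in wild-type mice), 2 probe sets of Cox6b2 are highest there and the remaining one is highest in cortex.

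Cox8 has a ubiquitous form, Cox8a, a muscle form, Cox8b, and Cox8c. Cox8a was not tested, with signals of 2.93 to 19.8 over the 18 arrays. Cox8b was at 51.7, 40.5 and 92.7 in wild-type cerebellum, 61.4, 67.5 and 102 in hippocampus and 105, 93.7 and 118 in cortex. Cerebellum lay below cortex on each array, by -0.86 ± 0.18 (limma adjusted p 0.00197), and overlapped with hippocampus. Cox8c was at 227, 268 and 274 in cerebellum, 312, 370 and 310 in hippocampus and 392, 357 and 446 in cortex, below both, with -0.64 ± 0.11 against cortex. Cox6c, which has a single form, was lower in cerebellum than in cortex by -0.29 ± 0.10 (limma adjusted p 0.0302), which did not pass without animal 3396 (-0.30, 0.0667) or 3406 (-0.17, 0.278). The Cox8c difference from hippocampus, -0.37 ± 0.11, did not pass without animal 3405 or 3406 (-0.32 in each case, 0.121 and 0.0982).

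Cox7a2, the liver-type form of Cox7a, was at 2018, 2082 and 1762 in wild-type hippocampus, below cortex at 2651, 2542 and 2475 and cerebellum at 2316, 2644 and 2944. The hippocampus arrays were the lowest, by -0.39 ± 0.10 against cortex (limma adjusted p 0.0144). Cox7b was lower in hippocampus than in cortex by -0.41 ± 0.12 (0.0414). Without animal 3406, Cox7a2 was at -0.44 (0.0517) and Cox7b at -0.22 (0.332), and of the 4 probe sets lower in hippocampus than in cortex only the dim one of Cox6b2 passed. That Cox6b2 probe set met the filter mainly through its cortex arrays, so the filter favoured its call. Cox7b also failed to pass without 3363, 3389 or 3396. Cox7a1, the muscle form, did not pass the filter, but its signal was 22 to 27.6 in wild-type cerebellum and 2.27 to 12.6 in the other wild-type regions, and was not tested. The brighter probe set of Cox4i1, the subunit that regulates the enzyme's response to ATP, differed by 0.13 ± 0.12 between cerebellum and cortex in wild-type mice and by 0.54 ± 0.12 in Aldh5a1-/- mice, where only the latter passed. The dimmer Cox4i1 probe set went the other way in Aldh5a1-/- mice, by -0.57 ± 0.19, and passed too (limma adjusted p 0.0287).

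In the ATP synthase, 6 of 19 probe sets were higher and 3 lower in wild-type cerebellum than in cortex (19.1% and 24.1% of all). Against hippocampus 8 were higher and none lower (14.7% and 16.4% of all). Atp5o, the oligomycin sensitivity protein that joins the stalk to the catalytic head, was at 1624, 1618 and 1611 in wild-type cerebellum, 1107, 1021 and 1044 in hippocampus and 877, 941 and 922 in cortex. The cerebellum arrays were far above the rest and close to one another. Cerebellum exceeded cortex by 0.83 ± 0.08, 1.77-fold (limma adjusted p 1.39e-06), and hippocampus by 0.61 ± 0.08. In Aldh5a1-/- mice the cerebellum was at 1618, 1634 and 1733.

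Atp5e, the epsilon subunit of the central stalk, was at 706, 704 and 634 in wild-type cerebellum, 393, 353 and 423 in hippocampus and 420, 289 and 475 in cortex. Cerebellum was above both, by 0.82 ± 0.13 against cortex and 0.81 ± 0.13 against hippocampus. Atp5c1, the gamma subunit of the same stalk, was higher in cerebellum than in cortex in both of its probe sets, by 0.28 ± 0.08 and 0.46 ± 0.09. Atp5j, a subunit of the peripheral stalk, was higher by 0.30 ± 0.09 (limma adjusted p 0.0174). Without animal 3396, Atp5j was at 0.22 (0.117) and the brighter Atp5c1 probe set at 0.24 (0.0834), and the latter was at 0.22 without 3405 (0.101). Atp5a1, the alpha subunit of the head, differed by 0.04 ± 0.08 and did not pass.

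Probe sets of some ATP synthase genes disagreed. For Atp5d, the delta subunit, the brightest was higher in cerebellum than in cortex (0.56 ± 0.21) and another was lower (-0.77 ± 0.24), both past the threshold. For Atp5g1, a gene of the membrane c ring, the brightest was lower in cerebellum than in cortex by -0.59 ± 0.23 (limma adjusted p 0.0485), and the other was higher than in hippocampus by 0.99 ± 0.24. Atp5pb, of the peripheral stalk, was lower in cerebellum than in cortex by -0.55 ± 0.21 (0.0415). Without animal 3405 the differences from cortex of the brightest probe sets were 0.53 for Atp5d, -0.37 for Atp5g1 and -0.29 for Atp5pb, and none passed (0.148, 0.322 and 0.368). The same calls were lost without 3396, that of Atp5d also without 3403 or 3406, that of Atp5g1 without 3403 and that of Atp5pb without 3389. No probe set of Ndufaf1, Ndufaf4, Cox7a2l or Cycs passed between any pair of wild-type regions.

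The 21 member probe sets left untested included every probe set of Ndufa12, Ndufc2, Cox5a, Cox7a1, Cox8a and Atp5j2. Their signals were too low for the filter, and no difference in them was tested. Some still lay above the floor. Ndufc2 was at 34.9, 28.3 and 38.4 in wild-type hippocampus. In Aldh5a1-/- hippocampus it was at 10.8, 8.56 and 13.7, without overlap and with 1 array under the floor.

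Genotype was the study's comparison. By limma 0 members passed between Aldh5a1-/- and wild-type mice in any of the 3 regions, in their mean, or in the test of whether the genotype difference itself varied by region. Of all probe sets, 0.119% passed in hippocampus, 0.0358% in cerebellum and 0.286% in cortex, 0.179% in the mean and 0.0477% in the interaction. At an unadjusted p under 0.05 the members numbered 9, 10, 9, 9 and 11 of 80, where 8.41%, 12.1%, 10.2%, 10.1% and 10.7% of all probe sets fell. The 95% interval of a member's difference spanned a factor of 1.12 to 2.10 to either side, with a median of 1.19, so with 3 animals per genotype smaller differences could not be told from 0. These intervals hold for 1 probe set without adjustment, and larger differences also failed to pass after adjustment over all probe sets. Where nothing passed, the values below are descriptions.

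The members leaned low in the forebrain of Aldh5a1-/- mice. The log2 difference was below 0 in 61 of 80 members in hippocampus, with a median of -0.08, and in 62 of 80 in cortex, with a median of -0.08, where 45.4% and 49.4% of all probe sets lay below 0 and the medians were 0.02 and 0.00. In cerebellum 33 lay below 0 and the median was 0.03, as over all probe sets (44.3% below 0). No test was made of these shifts. The lean differed with signal, which was not tested either. Of the 40 members with the higher mean signal, 35 were below 0 in hippocampus and 33 in cortex. Of the 40 with the lower mean signal, 26 and 29 were. With arrays scaled to a common median, the members' medians were -0.05 in cerebellum and -0.16 in hippocampus, and those over all probe sets moved with them, to -0.04 and -0.06.

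By animal, the median deviation of the members from the wild-type mean of the region was -0.11, -0.07 and -0.05 in Aldh5a1-/- hippocampus, 0.00, 0.02 and 0.06 in cerebellum and -0.15, -0.13 and 0.00 in cortex. Wild-type arrays lay between -0.05 and 0.06. In cortex the low median thus came from animals 3363 and 3389, and it was -0.14 without animal 3403 and -0.03 without animal 3363. In hippocampus, animal 3403 lay at the same -0.05 as the lowest wild-type array.

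**Figure D4:**
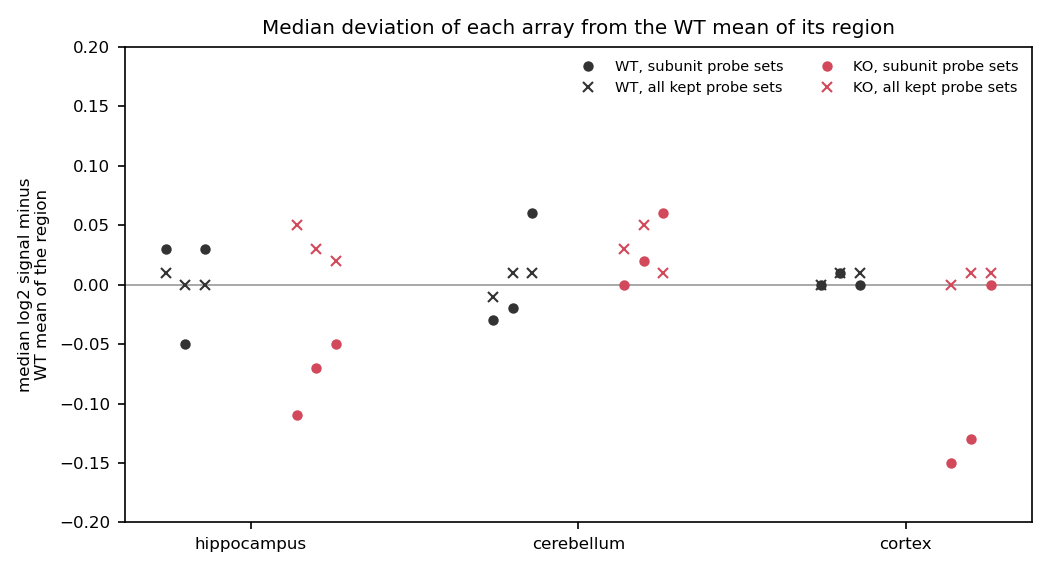
Median log2 deviation of each array (y axis) from the wild-type mean of its region for the 80 members and for all 8382 probe sets, by region and genotype (x axis). In hippocampus and cortex the Aldh5a1-/- members reach -0.11 and -0.15, while the medians over all probe sets stay between -0.01 and 0.05.

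By complex, the medians of the genotype difference in hippocampus were -0.06 for complex I, -0.17 for complex II, -0.08 for complex III, -0.01 for complex IV and -0.12 for the ATP synthase. In cerebellum they were 0.05, -0.05, 0.03, 0.12 and 0.00 in the same order. In cortex they were -0.07, 0.06, -0.10, -0.13 and -0.09. Complex II, with only 4 probe sets, was the lowest of the 5 in hippocampus and the highest in cortex.

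**Figure D5:**
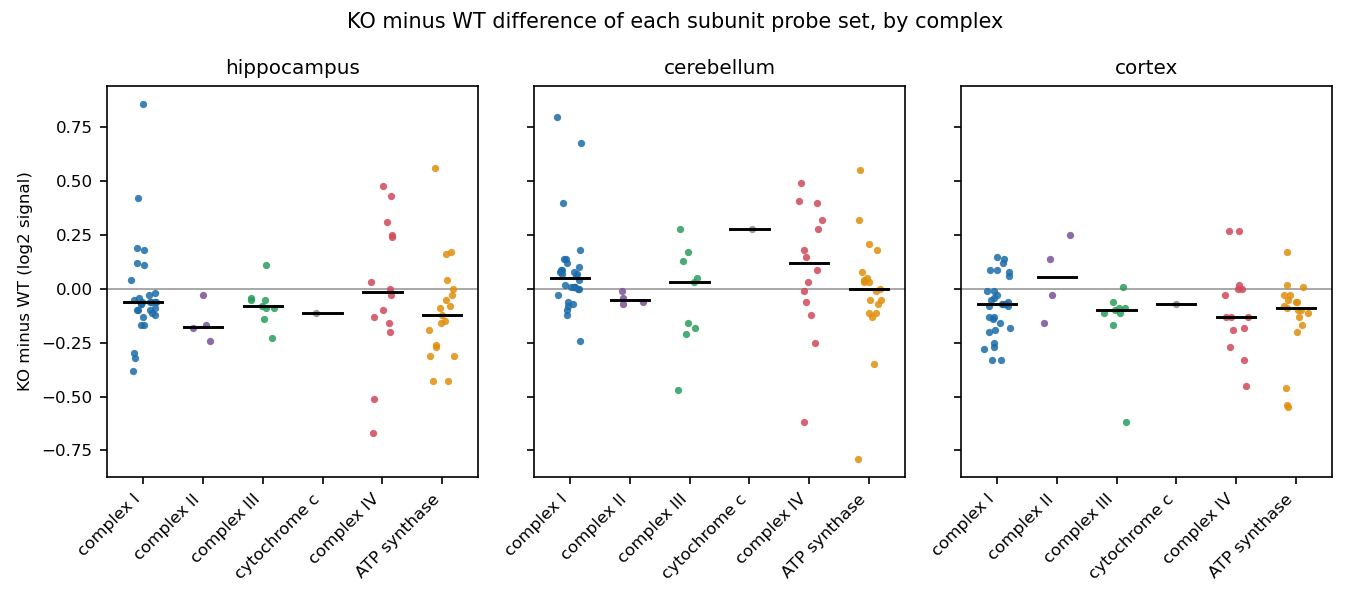
Log2 difference of Aldh5a1-/- minus wild-type (y axis) for each subunit probe set by complex (x axis) in hippocampus, cerebellum and cortex, with a bar at the median of each complex. Apart from the single probe set of cytochrome c, medians range from -0.17 to 0.12, and no point passed an adjusted p of 0.05.

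Other measures moved with genotype on the same arrays. All 7 tested markers of myelin and oligodendrocytes were below 0 in Aldh5a1-/- cortex, 6 of them past the threshold (median -1.40), and all 7 in hippocampus, with 3 past it (-1.06). The summed signal of the 8 on the array was 3411 to 4411 in Aldh5a1-/- cortex and 6705 to 8641 in wild-type, 4079 to 5247 and 6272 to 9534 in hippocampus, and 7708 to 8461 and 8531 to 9746 in cerebellum, with Cnp under the floor in wild-type hippocampus and cerebellum. Of 9 neuron markers 0 passed in the limma fit (medians -0.12, -0.28 and -0.10 in hippocampus, cerebellum and cortex). Of 3 choroid plexus markers 0 passed either (medians -0.34, 1.76 and -0.08 in the same order). The Gapdh signal ratio of 3′ to 5′ probe sets, a sign of RNA integrity, was 0.804 ± 0.00773 (SD, n = 3) in Aldh5a1-/- cortex and 0.903 ± 0.0202 in wild-type cortex, while that of actin was 1.77 in both. The part of these in the members' lean was not tested.

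In hippocampus, the members of lowest p were subunits of the ATP synthase. Atp5o was at 822, 799 and 938 in Aldh5a1-/- mice and 1107, 1021 and 1044 in wild-type. Every Aldh5a1-/- array was lower, by -0.31 ± 0.09 (limma adjusted p 0.310). Atp5j was at 637, 632 and 707 against 794, 783 and 871, also without overlap, with -0.31 ± 0.10 (0.370).

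Ndufa1, an accessory subunit of complex I, went the other way in hippocampus. It was at 54.0, 44.0 and 35.9 in Aldh5a1-/- mice and 23.2, 26.9 and 22.8 in wild-type. The Aldh5a1-/- arrays were all higher, by 0.86 ± 0.28, but the signal was low (limma adjusted p 0.398). Atp5k, Atp5c1, Cox6b2, Ndufb6 and Cox6c came next, with log2 differences of -0.43, -0.26, -0.51, -0.32 and -0.20 and adjusted p-values of 0.522 to 0.588. In all, 6 members had every Aldh5a1-/- array above and 7 every one below the wild-type arrays, where 10.3% and 6.93% of all probe sets did.

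In cerebellum, Ndufb3, an accessory subunit of the membrane arm of complex I, had the lowest p. It was at 1288, 1104 and 1375 in Aldh5a1-/- mice and 811, 804 and 570 in wild-type. All Aldh5a1-/- arrays were higher, by 0.80 ± 0.24, 1.74-fold (limma adjusted p 0.174). Cox7b, a small subunit of complex IV, was at 1200, 1216 and 1221 against 991, 874 and 1064, also apart, with 0.32 ± 0.12 (0.288). Uqcrb, already highest in this region, was at 997, 984 and 940 against 836, 793 and 782, a difference of 0.28 ± 0.10 (0.259).

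The brightest Atp5d probe set was at 225, 105 and 293 in Aldh5a1-/- cerebellum and 278, 359 and 355 in wild-type, which overlapped, with -0.79 ± 0.30 (limma adjusted p 0.291). A second Atp5d probe set gave -0.35 ± 0.11 (0.218). Ndufa1, Cox4i1, Uqcrc1 and Cox6c followed with 0.68, 0.28, -0.21 and 0.18 and adjusted p-values of 0.328 to 0.471. Every Aldh5a1-/- array lay above wild-type in 9 members and below in 6, against 7.48% and 7.74% of all probe sets.

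In cortex, Atp5md, a small membrane subunit of the ATP synthase also called Usmg5, had the lowest adjusted p of any member. Its signal was 2186, 2196 and 2428 in Aldh5a1-/- mice and 3484, 3249 and 2689 in wild-type. The groups did not overlap, and the difference was -0.46 ± 0.10 on the log2 scale, 1.38-fold, with a 95% interval of -0.68 to -0.24 and a limma adjusted p of 0.0728. Without wild-type animal 3396, the lowest of its group, it was -0.57 with an adjusted p of 0.0273.

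Cox7a2 was at 2040, 1916 and 2163 in Aldh5a1-/- cortex and 2651, 2542 and 2475 in wild-type, each lower, by -0.33 ± 0.09 (limma adjusted p 0.209). Ndufab1, the mitochondrial acyl carrier protein that is also a complex I subunit, was at 626, 600 and 679 against 803, 835 and 760, by -0.33 ± 0.10 (0.236). Both sets of arrays were apart from wild-type. Ndufa5, Ndufb8, Atp5pb, Ndufb6 and Cox7b had differences of -0.27, -0.25, -0.55, -0.33 and -0.27 and adjusted p-values of 0.326 to 0.465. Every Aldh5a1-/- array lay below wild-type in 11 members and above in 1, Sdhc, where 7.13% and 7.05% of all probe sets did.

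Averaged over the regions of each animal, Cox7a2 (-0.19 ± 0.06), Atp5md (-0.20 ± 0.06) and Ndufab1 (-0.21 ± 0.07) had the lowest p-values, with limma adjusted p-values of 0.354, 0.361 and 0.368. Ndufa1 was at 0.51 ± 0.17 (0.394) and Ndufa13 at -0.22 ± 0.08 (0.403). Ndufb6, Cox6b1 and Uqcrq gave -0.24, 0.37 and -0.13. Without wild-type animal 3396, 1 member passed, the dimmer Cyc1 probe set at -0.48 (adjusted p 0.0352).

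The genotype difference varied most between regions for Atp5o, Ndufb3, Cox7b, Atp5md, Uqcrb and Cox6c by the interaction F test, with limma adjusted p-values of 0.346, 0.377, 0.379, 0.392, 0.431 and 0.431, so none passed. For Cox7b, Aldh5a1-/- was above wild-type in cerebellum (0.32) and below it in cortex (-0.27), a difference between the regions of 0.58 ± 0.18 (adjusted p 0.234). For Ndufb3 the cerebellum and hippocampus differed by 1.18 ± 0.34 (0.418). Over the members, the median change of the genotype difference was 0.14 from cortex to cerebellum and 0.10 from hippocampus to cerebellum, against 0.04 and 0.00 over all probe sets.

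Genes that build or regulate these complexes were taken from further lists. Assembly factors, which insert cofactors and join subunits, had 14 of 36 on the array and 13 tested, and 0 passed between genotypes in any region by limma. The lowest p-values were those of Foxred1 in cerebellum (0.26, limma adjusted p 0.405) and Sdhaf1 in cortex (-0.31, 0.461). In wild-type cerebellum against cortex Coa3, a complex IV factor, was higher by 0.34 and Sdhaf1, a complex II factor, by 0.42, while Foxred1, a complex I factor, was lower by -0.63 (adjusted p 0.00692, 0.0178 and 0.00116). Against hippocampus Sdhaf1 alone passed, and Uqcc1, a complex III factor, was higher in hippocampus than in cortex by 0.70 (0.0472).

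Regulators of mitochondrial biogenesis had 12 of 17 on the array and 9 tested, with 0 past the threshold between genotypes in any region by limma. Ppargc1a, the coactivator PGC-1alpha, had the lowest p in cerebellum (1.39 ± 0.50, limma adjusted p 0.265), and Tfb2m, a mitochondrial transcription factor, in cortex (-0.48, 0.344). The Ppargc1a signal there was low and uneven, at 27.6 ± 28.7 (SD, n = 3) in wild-type cerebellum and 51.5 ± 8.91 in Aldh5a1-/- cerebellum. In wild-type cerebellum Gabpa, a subunit of GABP, was above cortex by 0.67, Polrmt, the mitochondrial RNA polymerase, by 0.52 and Polg2, a subunit of the mitochondrial DNA polymerase, by 0.79 (adjusted p 0.00868, 0.0126 and 0.0198), and none of the 9 passed as lower. Against hippocampus Gabpb1, Esrra, Polrmt and Ssbp1 were higher by 0.45, 0.53, 0.50 and 0.57 (adjusted p 0.0490, 0.0129, 0.0203 and 0.0437).

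Carriers and channels that move ADP, phosphate and protons across the mitochondrial membranes had 8 of 10 on the array and 6 tested, with 0 past the threshold between genotypes by limma. Slc25a3, the phosphate carrier, was at 1.62 ± 0.47 in cerebellum (limma adjusted p 0.173) and Slc25a14, an uncoupling protein homologue, at -0.64 ± 0.17 in hippocampus (0.212). The Slc25a3 signal was low, at 14.9 ± 1.78 (SD, n = 3) in wild-type cerebellum and 52.0 ± 27.4 in Aldh5a1-/- cerebellum. Between wild-type regions Slc25a14 alone passed, lower in cerebellum than in cortex by -1.0 and than in hippocampus by -0.62 (adjusted p 0.000684 and 0.020).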

How the data were processed

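The authors deposited 1 table of linear intensity values, with a column for each array, already scaled to a common trimmed mean. Their software: not given in the sources used here. Probe sets were named from the platform annotation, where 10855 probe sets had 1 symbol, 396 had several and 1237 had none. In R 4.3.3, the 66 control probe sets were dropped. A floor was set at the 20th percentile over the table before taking log2. Probe sets that exceeded the 40th percentile of the array on 3 or more of the 18 arrays were tested.

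Genotype was tested per region with limma 3.58.1 (6 group means, 12 residual degrees of freedom, eBayes with an intensity trend, two-sided), and over the regions on the means of each animal (4 degrees of freedom). Regions and the interaction were fitted with the animal as a fixed block (8 degrees of freedom), since the labels give the same animal numbers in each region. Arrays of 1 animal had a median residual correlation of 0.135, against -0.0159 between animals. Replicates are separate animals per the labels. The fit was tested on simulated data.

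Named are, per genotype comparison, the 8 members of lowest p, for the wild-type regions the 12 of largest range among those past 0.05 and the isoform genes of complex IV, and for the interaction the 6 of lowest p. Other genes are named to account for a complex and were chosen after their values were seen. A gene with several probe sets is given by its brightest. Members, lists and tests were chosen with earlier results of these data known. Alternatives were other scalings, floors and filters, no intensity trend, the animal as a block or not, a region's own 6 arrays, 1 probe set per gene, and each animal left out.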

Additional observations from a re-analysis of the deposited data

How the results depend on the processing

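Of the differences named by rule between genotypes, 0 turned their sign, and 1, Atp5md in cortex, changed its side of the threshold, with 1 animal left out. Among the wild-type region calls of the brightest probe sets 0 turned their sign, and 14 of 31, 16 of 30 and 3 of 3 genes lost the call under at least 1 alternative between cerebellum and cortex, cerebellum and hippocampus, and hippocampus and cortex. Of the counts and medians over the members, 347 values stayed near the reported ones and 25 moved.

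Genotype. With median scaling the members' median was -0.16 in hippocampus and -0.05 in cerebellum, with -0.06 and -0.04 over all probe sets, which the scaling moves alike. With 1 animal left out, members past the threshold numbered 0 to 0 in hippocampus and cerebellum, 0 to 1 in cortex and 0 to 1 in the mean of regions. The medians were -0.11 to -0.06 in hippocampus, 0.01 to 0.05 in cerebellum, -0.14 to -0.03 in cortex and -0.07 to -0.02 in the mean. The replicate block, with animal as a random effect, left 0 members in each region and medians of -0.08, 0.03 and -0.08. The interaction stayed at 0.

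Regions in wild-type mice. With median scaling, cerebellum minus cortex had 6 members lower and a median of 0.31, cerebellum minus hippocampus a median of 0.31, and hippocampus minus cortex 1 member higher (Atp5o) and a median of 0.02 (over all probe sets 0.10, 0.06 and 0.05 in this order). With no filter the medians were 0.06 and 0.11 for cerebellum minus cortex and minus hippocampus, and 1 member, Atp5o, was higher in hippocampus than in cortex. With only the 52 probe sets without a suffix, chosen after seeing the data, 6 were lower in cerebellum than in cortex, and 2, both lower, passed between hippocampus and cortex. With 1 animal left out, cerebellum against cortex gave 27 to 35 members, 19 to 26 higher and 5 to 10 lower, with medians of 0.11 to 0.16. Hippocampus against cortex gave 1 to 5, with 0 to 1 higher, 1 to 5 lower and medians of -0.09 to -0.03. Cerebellum against hippocampus gave 22 to 32, with 19 to 29 higher, 1 to 3 lower and medians of 0.17 to 0.23. The F test passed for 29 to 37 members in wild-type and 33 to 54 in Aldh5a1-/- mice (33 without animal 3363). With no replicate block the counts were 33, 4 and 31 for the 3 pairs, and no other call count moved by over 1.5 times. The causes were not tested, apart from the fewer animals or probe sets that some of these settings use by construction.

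The number of arrays limits the precision, and saturation of bright probes was not measured.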

Other observations

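A further 10 probe sets named a member gene together with another gene, such as a pseudogene, and were left out of all counts. Cox7c, which shares its probe set with Gm12338, was at 4943 ± 561 (SD, n = 3) in wild-type cerebellum, 4645 ± 392 in hippocampus and 5865 ± 751 in cortex, and was lower in hippocampus than in cortex by -0.33 on the log2 scale (limma adjusted p 0.0422). Ndufs5 was higher in wild-type cerebellum than in cortex by 0.35 (0.0133) and Ndufa11 by 0.36 (0.00737). The probe set of Ndufb4 was lower there by -0.65 (0.0303). Between genotypes the limma adjusted p-values of the tested ones among them were 0.546 to 0.943 in the mean of the regions.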
